A study of Homo sapiens with 16 samples.

Results

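The ID genes (ID1, ID2, ID3 and ID4) and the MSX genes (MSX1 and MSX2) are 6 of the 18132 genes that a PrimeView probe set naming a single gene measured in these cells. They were taken as a list by gene symbol, chosen with earlier results of these data known, and all 6 were measured. For each, the probe set that was brightest on average across the 16 arrays is given, and the gene's other probe sets serve as a check. Levels are log2 values of robust multi-array average (RMA) signals, in which a difference of 1 is a doubling; they compare the same gene between groups and not different genes with each other.

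RNA was measured on 2 arrays in each of 8 groups of H1 cells, an established line of human embryonic stem cells, driven towards definitive endoderm, the cell layer from which gut, liver and pancreas form. GATA6 rescue cells at day 5 carried a lentiviral shRNA against GATA6 and, in addition, a doxycycline-inducible GATA6 cDNA that the shRNA cannot target, and received 60 ng/mL doxycycline for 96 h by the labels, whereas the text of the study gives a lower concentration for its rescue experiments. GATA6-depleted cells at days 3, 4 and 5 carried the shRNA alone, and control cells at days 0, 3, 4 and 5 carried the empty vector; neither received doxycycline. All differentiating groups had 50 ng/mL activin A with 10 ng/mL BMP4 and 20 ng/mL FGF2 for 2 days and then activin A alone for 1, 2 or 3 days, so every array after day 0 came from cells no longer given BMP4. Day 0 cells were pluripotent and untreated. The lines were polyclonal, and depleted cells were not arrayed at day 0. The text of the study describes replicates of control and depleted cells as separate differentiations and does not say this of the rescue arrays. Since only rescue cells had the cDNA and doxycycline, these cannot be told apart.

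Bone morphogenetic proteins (BMPs) are secreted ligands that bind paired type I and type II receptor kinases, which phosphorylate SMAD1, SMAD5 and SMAD9; these enter the nucleus with SMAD4. ID genes are among the most immediate targets of this signal in many cell types. ID proteins have a helix-loop-helix without a DNA-binding region, pair with E proteins such as TCF3, and so keep E proteins and their partners off DNA. MSX1 and MSX2 are homeobox repressors induced by BMPs in embryonic mesenchyme, the limb bud and neural crest. In human pluripotent cells, BMP4 given with activin favours primitive streak and mesoderm, whereas definitive endoderm is favoured by activin alone.

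The 200 bases before the RefSeq start sites of ID2 and ID4, the 2 members with the largest changes after depletion, and of ID1, which fell the furthest below control in rescue cells, are shown from build GRCh38.p14. Capitals mark matches, on either strand, to 4 short motifs: GGCGCC (a GC-rich element bound by SMAD1 and SMAD5), GTCT (the SMAD box, read as AGAC on the other strand), a GATA site (spelled AGATAA or with G as its last base, and likewise TGATAA or with G as its last base) and CANNTG (the E-box bound by E proteins).
ID2 (chr2:8681856-8682055, plus strand): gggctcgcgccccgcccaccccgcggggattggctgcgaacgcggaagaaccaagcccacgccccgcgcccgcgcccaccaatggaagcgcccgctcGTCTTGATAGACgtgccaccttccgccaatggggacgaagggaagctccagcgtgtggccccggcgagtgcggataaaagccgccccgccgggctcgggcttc
ID4 (chr6:19837170-19837369, plus strand): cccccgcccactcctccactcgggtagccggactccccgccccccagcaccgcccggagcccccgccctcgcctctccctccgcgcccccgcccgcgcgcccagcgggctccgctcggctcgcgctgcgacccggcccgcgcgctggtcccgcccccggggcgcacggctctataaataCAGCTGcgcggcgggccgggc
ID1 (chr20:31605089-31605288, plus strand): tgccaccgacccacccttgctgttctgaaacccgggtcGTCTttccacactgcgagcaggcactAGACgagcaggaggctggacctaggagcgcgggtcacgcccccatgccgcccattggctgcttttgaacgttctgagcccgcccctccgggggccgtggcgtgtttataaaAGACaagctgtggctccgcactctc
In ID2 a GTCT begins 103 bases before the start and runs into a TGATAG at 99 bases, whose last 2 bases belong to an AGAC at 95 bases. ID2 was the only member with a GATA spelling within the 250 bases searched, and 22.9% of 27305 promoters in the RefSeq table hold 1 or more. ID4 has an E-box 21 bases before its start and ID2 has 1 at 205 bases, just outside the stretch shown, and 62.2% of promoters hold an E-box. ID1 has 3 matches to the SMAD box, as does MSX2, ID2 and ID3 have 2, ID4 has 1 outside the stretch shown and MSX1 has 0, whereas 77.6% of all promoters have at least 1. GGCGCC was found in none of the 6 windows and in 16.1% of all. Base composition ranged from 55.6% G and C in MSX2 to 78.8% in ID4, around a median of 58.0% over all promoters. A match in so short a window is a description of the letters there and not of binding.

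GATA6 itself was lower in depleted than in control cells by 1.69, 4.21 and 5.03 log2 at days 3, 4 and 5, on a probe set that may not read the cDNA. On that probe set it was 1.88 log2 higher in rescue than in depleted cells at day 5 (limma, adjusted p = 0.000168) and 3.15 log2 lower in rescue than in control cells. The text of the study, however, reports that GATA6 was overexpressed in rescue endoderm given doxycycline. The lower array value may thus not reflect the total GATA6 of rescue cells. Markers set the state of the cultures: at day 4 the 5 endoderm markers averaged 4.49 and 3.91 in depleted cells against 8.49 and 8.96 in control cells, and the 5 pluripotency markers averaged 9.79 and 9.84 against 8.33 and 8.40. The 8 mesoderm markers averaged 6.93 and 6.25 in depleted cells against 6.61 and 5.90 in control cells. TBXT (brachyury) was 3.83 higher, and without it the other 7 averaged 6.55 and 5.79 in depleted cells against 6.66 and 5.99 in control cells; MESP1 was higher (1.21) and MIXL1 lower (-0.78), and the other 5 were not called. Averages over the 8 amnion and trophoblast markers stayed between 3.22 and 3.84 on all 16 arrays and those over the 6 neural markers between 3.27 and 4.05, with each array's lower quartile at 2.94 to 3.06. Single markers did move: in depleted against control cells PAX6 was lower by 2.66 at day 4 and 3.86 at day 5 (means of 3.71 and 4 in depleted against 6.37 and 7.86 in control cells), GATA3 differed by -0.98 and -1.43, and GABRP by 1.27 and 1.59, all called. At day 3 the 5 pluripotency markers averaged 8.09 and 8.03 in depleted cells against 8.40 and 8.62 in control cells. The 5 endoderm markers averaged 7.13 and 7.11 against 7.66 and 8.36. NANOG (-0.83), DPPA4 (-0.63) and HHEX (-1.57) were called lower in depleted cells at day 3, and the other markers of these lists were not called. The text of the study also reports that depleted cultures lost many cells, with more apoptosis than controls, most of all late in the differentiation. It reports that this loss was averted in rescue cells given doxycycline. In bulk RNA, fewer cells of a type and less RNA per cell cannot be told apart. The part of the marker shifts and of the cell loss in the ID and MSX results was not tested. Rescue arrays had lower signals of the bioB hybridisation control (7.26 and 7.29) than any other array, and their replicates lay closest together. The control day 0 arrays came next (7.74 and 7.66), below the remaining 12 (8.39 to 8.96), and had the lowest 3′ over 5′ signals of ACTB, an RNA integrity measure (0.93 and 1.08 log2, against 1.19 to 2.19 on the others). The part of this in comparisons with day 0 was not tested.

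In control cells, the question was how the 6 genes moved while endoderm formed. MSX2 was at 4.43 and 4.79 at day 0, 7.52 and 7.17 at day 3, 6.72 and 6.38 at day 4 and 7.15 and 7.24 at day 5. It was thus low in pluripotent cells and high on every later array, 2.73 ± 0.20 log2 (SE; 6.65-fold) higher at day 3 than at day 0 (limma, adjusted p = 6.05e-07). ID2 read 7.43 and 6.51 at day 0, 8.19 and 8.21 at day 3, 7.06 and 6.59 at day 4 and 6.23 and 5.93 at day 5. Its level peaked at day 3 and was lowest at day 5, with no overlap between days 3 and 0 or between days 4 and 3. The rise by day 3 was 1.23 ± 0.26 (adjusted p = 0.00312) and the fall by day 4 was -1.38 ± 0.26 (adjusted p = 0.0169). MSX1 was higher at day 3, with 5.88 and 5.75, than at day 0, with 5.11 and 5.02 (0.75 ± 0.19, adjusted p = 0.00921). In all, 3 of 6 members were higher at day 3 than at day 0, where 27.8% of all genes were called and 13.2% were higher. By the thresholds of the methods' ANOVA (an unadjusted p with a size limit) only MSX2 was called, among 2.18% of all genes.

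ID1 read 9.84 and 11 at day 0, 11.15 and 11.04 at day 3, 10.62 and 10.04 at day 4 and 9.69 and 9.41 at day 5. Its day 0 arrays lay 1.16 log2 apart, and the day 3 value was 0.68 ± 0.28 above them (adjusted p = 0.10). ID3 differed by 0.46 between day 3 and day 0 (adjusted p = 0.226). ID4, a helix-loop-helix gene best known from neural progenitors, read 6.36 and 7.18 at day 0, 7.79 and 5.86 at day 3, 5.14 and 4.69 at day 4 and 4.50 and 4.57 at day 5. The day 3 replicates of ID4 were the most discordant of any member and group, 1.93 apart. Their mean was 0.05 above that of day 0 (adjusted p = 0.953), but without control day 3 replicate 1 ID4 was lower than at day 0 (-0.91, adjusted p = 0.0476) and without replicate 2 it was higher (1.02, adjusted p = 0.0328). The day 4 level was 1.91 ± 0.45 lower than the day 3 mean (adjusted p = 0.0409). Between days 3 and 4, after BMP4 and FGF2 had been withdrawn, all 6 fitted changes were negative with no overlap of arrays, as for 21.2% of all genes, but only ID2 and ID4 passed the test, where 3.13% of all genes were called and 1.91% called lower. A block by replicate number in control days 3 to 5 was added after seeing the data. Same-numbered arrays there deviated together only weakly (r of 0.087 to 0.253). With that block, ID3 (-0.95, adjusted p = 0.022) and MSX2 (-0.79, adjusted p = 0.0403) were called as well. From day 4 to day 5, 0 of 6 members were called by limma (0.237% of all genes), with 3 at an unadjusted p under 0.05 (10.1% of all genes) and 0 by the methods' ANOVA thresholds (0.607%).

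MSX1 lost its day 3 call without control day 0 replicate 2 (0.70, adjusted p = 0.0512) or control day 3 replicate 1 (0.68, adjusted p = 0.0546). The day 4 fall of ID2 was not called without control day 3 replicate 1 (adjusted p = 0.0849) or control day 4 replicate 2 (adjusted p = 0.161), and that of ID4 was not called in 13 of the 16 fits that left out 1 array (adjusted p 0.0535 to 0.249, with -0.95 without control day 3 replicate 1).

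**Figure D1:**
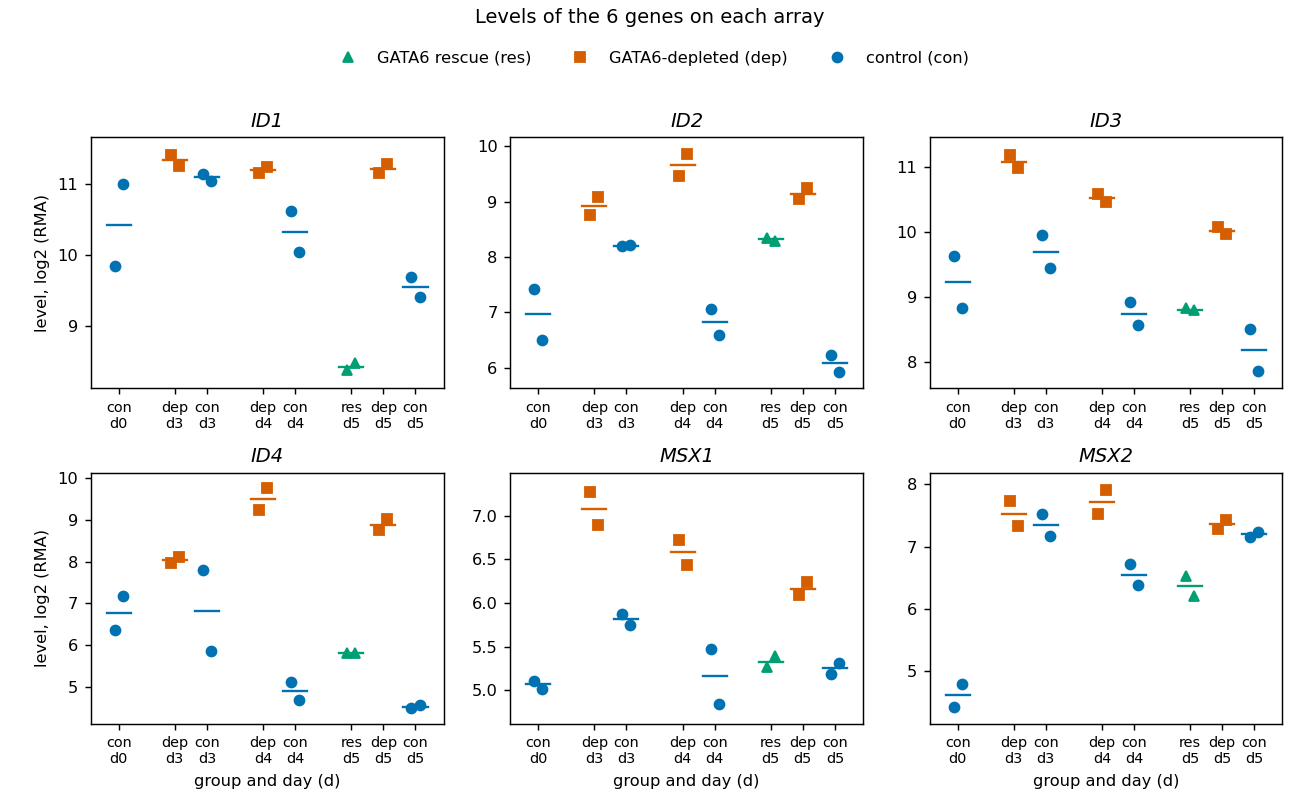
Level of each gene on each array (y axis, log2 RMA signal; each panel has its own scale) by group and day (x axis: con, control; dep, GATA6-depleted; res, GATA6 rescue), with points for arrays and bars for the mean of 2. Depleted arrays lie above control arrays of the same day for all 6 genes at day 4, and the rescue arrays of ID1 lie below every other group.

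At day 3, 1 day after BMP4 was withdrawn, ID3 and MSX1 were already higher in GATA6-depleted cells. ID3 read 11.19 and 10.98 in depleted cells against 9.95 and 9.45 in control cells. The depleted arrays were the highest of all 8 groups for ID3, and the difference was 1.38 ± 0.26 log2 (2.61-fold, adjusted p = 0.0112). MSX1 read 7.27 and 6.89 in depleted cells against 5.88 and 5.75 in control cells, again the highest level of any group, and differed by 1.27 ± 0.19 (2.41-fold, adjusted p = 0.00258). These were 2 of 6 members higher and 0 lower, where 3.75% of all genes were called, 1.79% higher and 1.96% lower.

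ID2 read 8.75 and 9.09 in depleted cells against 8.19 and 8.21 in control cells, a difference of 0.72 with a 95% interval of 0.15 to 1.28 (adjusted p = 0.166). ID4 read 7.96 and 8.10 in depleted cells, against the discordant 7.79 and 5.86 in control cells (1.21, interval 0.23 to 2.19, adjusted p = 0.178). Depleted and control arrays of ID1 differed by 0.24 (adjusted p = 0.75) and those of MSX2 by 0.19 (adjusted p = 0.712). Both genes stood at their highest control level on that day.

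ID3 lost its call without depleted day 3 replicate 1 (1.28, adjusted p = 0.0946) or control day 3 replicate 2 (1.14, adjusted p = 0.0975), and ID4 gained a call without control day 3 replicate 1 (2.18, adjusted p = 0.00246). Control day 3 replicate 2 also had the largest 3′ over 5′ signal of ACTB, at 2.19 log2 against 0.93 to 1.71 on the other arrays.

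At day 4 all 6 genes were higher in GATA6-depleted cells, where 14.8% of all genes were higher and 28.2% were called. ID4 read 9.23 and 9.75 in depleted cells against 5.14 and 4.69 in control cells. The groups were over 4 log2 apart at their nearest arrays, and the difference of 4.57 ± 0.45 was 23.8-fold (adjusted p = 9.42e-06). Among all probe sets of an array ID4 stood at the 94.4th and 96.2nd percentiles in depleted cells and at the 54.8th and 49.2nd in control cells. ID2 read 9.46 and 9.86 in depleted cells against 7.06 and 6.59 in control cells (2.83 ± 0.26, 7.13-fold, adjusted p = 5.52e-06). ID3 read 10.59 and 10.47 in depleted cells against 8.93 and 8.57 in control cells (1.78 ± 0.26, 3.44-fold, adjusted p = 0.000207). Depleted arrays lay above control arrays for these and the other 3 members, as they did for 31.5% of all genes.

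Of the homeobox genes, MSX1 read 6.72 and 6.44 in depleted cells against 5.47 and 4.84 in control cells (1.43 ± 0.19, 2.69-fold, adjusted p = 9.11e-05). MSX2 read 7.52 and 7.91 in depleted cells against 6.72 and 6.38 in control cells (1.16 ± 0.20, 2.24-fold, adjusted p = 0.000709). ID1 changed the least, with 11.16 and 11.24 in depleted cells against 10.62 and 10.04 in control cells (0.87 ± 0.28, 1.83-fold, adjusted p = 0.0357). The median over the 6 members was 1.60 log2, against -0.01 over all genes. The ID1 call was lost without depleted day 4 replicate 1 (0.91, adjusted p = 0.101) or replicate 2 (0.83, adjusted p = 0.145), or without control day 4 replicate 2 (0.59, adjusted p = 0.259). By the methods' ANOVA thresholds, which called 2.29% of all genes, only ID2 and ID4 of the members were called.

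At day 5, 5 of 6 genes were higher in GATA6-depleted cells, where 16.5% of all genes were higher and 32.6% were called. ID4 read 8.75 and 9.02 in depleted cells against 4.50 and 4.57 in control cells (4.34 ± 0.45, 20.3-fold, adjusted p = 1.15e-05). ID2 read 9.04 and 9.25 in depleted cells against 6.23 and 5.93 in control cells (3.06 ± 0.26, 8.37-fold, adjusted p = 2.2e-06). ID3 read 10.08 and 9.97 in depleted cells against 8.51 and 7.87 in control cells (1.83 ± 0.26, 3.56-fold, adjusted p = 0.000141). The effect at day 5 minus that at day 4 was -0.23 for ID4, 0.23 for ID2 and 0.05 for ID3. ID1 read 11.16 and 11.28 in depleted cells against 9.69 and 9.41 in control cells (1.67 ± 0.28, 3.18-fold, adjusted p = 0.000577), a level in depleted cells that had changed by 0.02 since day 4.

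MSX1 read 6.09 and 6.24 in depleted cells against 5.19 and 5.31 in control cells (0.91 ± 0.19, 1.88-fold, adjusted p = 0.0022). MSX2 was the exception, with 7.29 and 7.43 in depleted cells against 7.15 and 7.24 in control cells (0.16, interval -0.27 to 0.60, adjusted p = 0.59). The arrays of MSX2 did not overlap, but the nearest arrays of the groups were closer together than the replicates. No call of a member at this day was lost when an array was left out, but by the methods' ANOVA thresholds (2.26% of all genes) ID2 and ID4 alone were called.

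The change in the effect of depletion between days was tested directly. From day 3 to day 4 the effect grew by 3.36 ± 0.64 log2 for ID4 (adjusted p = 0.00342), by 2.12 ± 0.37 for ID2 (adjusted p = 0.00205) and by 0.97 ± 0.28 for MSX2 (adjusted p = 0.0345). These were 3 of 6 members, where the effect of depletion differed between these days for 15.3% of all genes and shifted upward for 8.35%. For ID1 (0.63, interval -0.24 to 1.5), ID3 (0.40, interval -0.40 to 1.2) and MSX1 (0.16, interval -0.42 to 0.74) the change did not pass the test. The MSX2 value fell short when depleted day 3 replicate 2, depleted day 4 replicate 2, control day 3 replicate 1 or control day 4 replicate 2 was left out (0.77 to 0.81, adjusted p 0.121 to 0.146).

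Within depleted cells ID4 was higher at day 4 than at day 3 (1.45 ± 0.45, adjusted p = 0.0393), as 1 of 6 members called where 19.5% of all genes were. That call was lost in 10 of the 16 fits that left out an array (adjusted p 0.0522 to 0.234) and under the methods' ANOVA thresholds (2.32% of all genes). ID2 moved by 0.74 in depleted cells (adjusted p = 0.0674) and by -1.38 in control cells over that day. From day 4 to day 5 the effect of depletion differed for 0 of 6 members by limma (0.0938% of all genes), with 1 at an unadjusted p under 0.05 (9.11% of all genes) and 0 by the methods' ANOVA thresholds (0.502%). That member was MSX2 (-1 ± 0.28, adjusted p = 0.291). Depleted cells at days 5 and 4 differed for 0 of 6 members by limma (0.0827% of all genes), with 1 at an unadjusted p under 0.05 (8.92% of all genes) and 0 by the methods' ANOVA thresholds (0.524%).

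**Figure D2:**
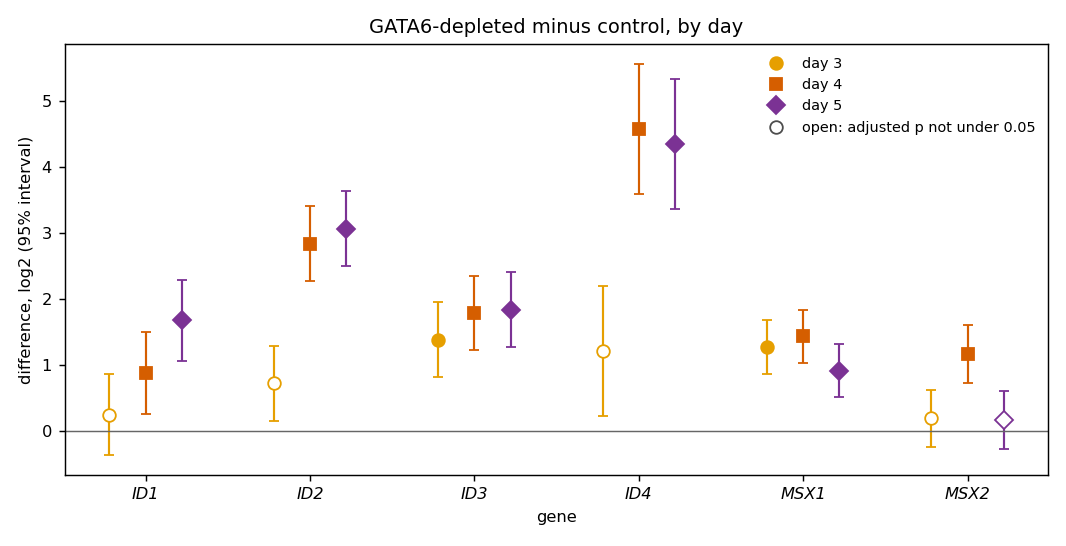
GATA6-depleted minus control for each gene at days 3, 4 and 5 (y axis, log2 difference; bars, 95% intervals from the model over 16 arrays). The ID4 difference is 1.21 at day 3, 4.57 at day 4 and 4.34 at day 5, and MSX2 stands clear of 0 at day 4 alone.

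Late depleted cells were also set against undifferentiated controls, since pluripotency markers averaged 9.86 and 9.89 in depleted day 5 cells against 10.24 and 10.67 in control day 0 cells. Depleted day 5 cells had more MSX2 than control day 0 cells (7.29 and 7.43 against 4.43 and 4.79, 2.75 ± 0.20, adjusted p = 2.33e-06) and more ID2 (2.17 ± 0.26, adjusted p = 0.000103). ID4 was 2.11 ± 0.45 higher (adjusted p = 0.00572) and MSX1 1.09 ± 0.19 higher (adjusted p = 0.0014). These were 4 of 6 members, where 8.8% of all genes were higher and 18.5% were called. ID1 (0.80, adjusted p = 0.0705) and ID3 (0.79, adjusted p = 0.0532) missed the threshold, with day 0 replicates 1.16 and 0.81 apart. Without control day 0 replicate 1 the ID4 difference was 1.71 (adjusted p = 0.0538), and ID3 was then called (1.19, adjusted p = 0.00966); without replicate 2, ID1 was called (1.38, adjusted p = 0.00091).

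Rescue cells were compared with depleted cells to ask how the levels differed when GATA6 was supplied to cells that kept the shRNA. MSX2 had no called effect of depletion at day 5 (0.16, limma adjusted p = 0.59), so a lower level of it undoes no called change. All 6 genes were lower in rescue than in depleted cells at day 5, where 17.6% of all genes were lower and 39.5% were called. Cell-state markers moved with them: the 5 pluripotency markers averaged 6.39 and 6.35 in rescue cells against 9.86 and 9.89 in depleted cells (8.43 and 8.78 in control cells), with POU5F1 4.93 lower in rescue than in depleted cells. The 8 mesoderm markers averaged 4.53 and 4.58 in rescue cells against 6.03 and 5.85 in depleted cells, and the 5 endoderm markers 8.29 and 8.35 against 4.79 and 4.83. The part of these shifts was not tested. ID4 read 5.82 and 5.83 in rescue cells against 8.75 and 9.02 in depleted cells (-3.05 ± 0.45, 8.30-fold lower, adjusted p = 0.00014). ID1 read 8.37 and 8.47 in rescue cells against 11.16 and 11.28 in depleted cells (-2.80 ± 0.28, 6.95-fold lower, adjusted p = 6.07e-06). ID3 read 8.83 and 8.80 in rescue cells against 10.08 and 9.97 in depleted cells (-1.21 ± 0.26, adjusted p = 0.00233). Rescue arrays lay below depleted arrays for all 6 members, as for 37.2% of all genes.

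MSX2 read 6.53 and 6.21 in rescue cells against 7.29 and 7.43 in depleted cells (-0.99 ± 0.20, adjusted p = 0.00141), and MSX1 read 5.27 and 5.39 against 6.09 and 6.24 (-0.84 ± 0.19, adjusted p = 0.00309). ID2 moved the least, with 8.34 and 8.29 in rescue cells against 9.04 and 9.25 in depleted cells (-0.83 ± 0.26, 1.77-fold lower, adjusted p = 0.0223). The ID2 call was lost with the rescue arrays counted as 1 sample (adjusted p = 0.088) and without any single rescue or depleted day 5 array (-0.93 to -0.72, adjusted p 0.0509 to 0.118). By the methods' ANOVA thresholds (2.11% of all genes), ID1 and ID4 alone were called. Since the rescue arrays also stood apart in their hybridisation control, whose part was not tested, this group differs from the others in more than GATA6.

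Set against control cells of the same day, the rescue level differed by gene. ID2 stayed above control, at 8.34 and 8.29 in rescue cells against 6.23 and 5.93 in control cells (2.24 ± 0.26, 4.72-fold higher, adjusted p = 7.25e-05). ID1 was below it, at 8.37 and 8.47 in rescue cells against 9.69 and 9.41 in control cells (-1.13 ± 0.28, 2.19-fold lower, adjusted p = 0.0123). MSX2 was also below, at 6.53 and 6.21 in rescue cells against 7.15 and 7.24 in control cells (-0.83 ± 0.20, 1.78-fold lower, adjusted p = 0.00957). These were 3 of 6 members called, 1 higher and 2 lower, where 23.3% of all genes were called, 13.8% higher and 9.57% lower. The ID1 call was lost with the rescue arrays as 1 sample (adjusted p = 0.0687) and without either rescue array or control day 5 replicate 1 (-0.99 to -1.18, adjusted p 0.0566 to 0.0799), and that of MSX2 without rescue replicate 2 (-0.67, adjusted p = 0.102) or control day 5 replicate 2 (-0.79, adjusted p = 0.059). Only ID2 was called by the methods' ANOVA thresholds (1.97% of all genes), and pluripotency markers were lower in rescue than in control cells too, POU5F1 by 3.10 log2.

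ID4 read 5.82 and 5.83 in rescue cells against 4.50 and 4.57 in control cells (1.29, interval 0.31 to 2.27, adjusted p = 0.0574). ID3 read 8.83 and 8.80 in rescue cells against 8.51 and 7.87 in control cells (0.63, interval 0.06 to 1.19, adjusted p = 0.108). MSX1 read 5.27 and 5.39 in rescue cells against 5.19 and 5.31 in control cells (0.08, interval -0.33 to 0.49, adjusted p = 0.816), the only member whose rescue and control arrays overlapped, where 63.7% of all genes had none. ID3 was called without control day 5 replicate 1 (0.95, adjusted p = 0.0416), and with replicate number as a block in all groups (0.63, adjusted p = 0.0239). Without either control day 0 array the same 0.63 gave an adjusted p of 0.0498, and ID4 was called without either control day 3 array (1.29, adjusted p = 0.00301).

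**Figure D3:**
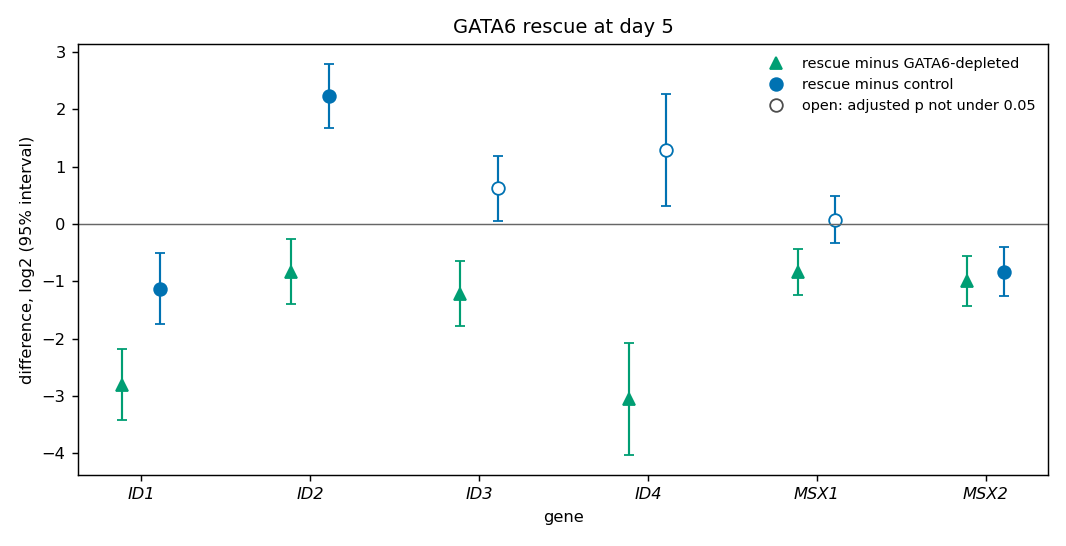
GATA6 rescue minus GATA6-depleted (triangles) and rescue minus control (circles) at day 5 for each gene (y axis, log2 difference; bars, 95% intervals). All 6 triangles lie below 0, whereas the circles run from -1.13 for ID1 to 2.24 for ID2.

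Ordered by level over the 8 groups, the 3 depleted groups held the top 3 places for each of the 6 genes, with ID1, ID3 and MSX1 highest at day 3 and ID2, ID4 and MSX2 at day 4. The share of all genes with such an order was not counted. For MSX2, depleted day 5 lay only 0.02 log2 above control day 3, with overlapping arrays. On the other MSX2 probe set, control day 5 (6.87) lay above depleted day 5 (6.65). The bottom place went to control day 5 for ID2, ID3 and ID4, to control day 0 for MSX1 and MSX2 and to rescue day 5 for ID1. Group means spanned 4.95 log2 for ID4, 3.58 for ID2, 3.10 for MSX2, 2.92 for ID1, 2.89 for ID3 and 2.01 for MSX1. Of the 7 pairs of neighbours in each order, the arrays overlapped in 1 for ID4 (control days 3 and 0), in 2 for ID2, in 3 for ID1, ID3 and MSX1 and in 5 for MSX2. For MSX2 no neighbours among depleted days 4, 3 and 5 and control days 3 and 5 were separated, nor were control day 4 and rescue day 5. For ID1 the 3 depleted groups lay within 0.14 log2 of each other.

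The rest of the BMP pathway did not move as a block, as counts over 7 lists show, read beside the 28.2% of all genes called at day 4 (14.8% higher and 13.3% lower). Among 12 BMP ligands, 3 were lower in depleted cells at day 4 and 0 higher: BMP2 (9.25 in depleted against 10.95 in control cells, -1.70, adjusted p = 0.00128), BMP5 (-1.07) and GDF6 (-1.06). Of 10 measured receptors and co-receptors 1 was higher and 4 lower, with the co-receptor RGMA at -1.94, the type II receptor BMPR2 at -1.62 and the activin receptor ACVR2B at -0.85. Of 4 SMAD effectors, SMAD1 was higher (0.66) and SMAD5 lower (-0.66). The receptor called higher at day 4 was the type I receptor BMPR1B (0.83). The part of the pathway genes in the ID and MSX levels was not tested. Of the called ligands and receptors, BMP5 was dim, at 3.04 and 3.08 in depleted against 3.94 and 4.32 in control cells. So were GDF6 (2.79 and 2.56 against 3.61 and 3.87) and BMPR1B (3.86 and 3.91 against 3.09 and 3.02). Medians of the arrays were 4.72 to 4.77.

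Of 11 measured secreted antagonists, which bind ligands outside the cell, 2 were higher and 4 lower. GREM1 (gremlin) averaged 7.22 in depleted against 2.90 in control cells (4.33, adjusted p = 1.8e-05), whereas the endoderm product CER1 (-2.84) was lower, and CHRDL1 was higher (1.42). The control day 4 arrays of GREM1, at 2.86 and 2.93, lay below the lower quartiles of those arrays (3.03 and 2.99). Of 7 inhibitors that act in the cell or at its membrane, 3 were higher and 1 lower. SMAD6, itself a known BMP target that blocks receptor-bound SMADs, averaged 7.41 in depleted against 10.04 in control cells (-2.63, adjusted p = 5.7e-06). The decoy receptor BAMBI, also induced by BMPs, averaged 9.43 in depleted against 8.25 in control cells (1.18, adjusted p = 0.00046), and SKIL was higher by 0.87. The feedback genes SMAD6 and BAMBI thus moved in opposite directions.

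Among 13 other transcription factors reported as BMP-responsive in various tissues, 2 were higher and 3 lower at day 4. RUNX2, the osteoblast factor, averaged 4.43 in depleted against 2.07 in control cells (2.36, adjusted p = 4.7e-05), while TBX3 (-1.87) and VENTX (-1.03) were lower. RUNX2 was dim, at 4.11 and 4.75 in depleted cells and at 2.03 and 2.12 in control cells. The control values lay below the lower quartiles of those arrays (3.03 and 2.99). Of the 3 E proteins, TCF3 was lower (-0.49, adjusted p = 0.00159) and TCF4 and TCF12 were not called. Medians over the lists lay between -0.30 and 0.11, against 1.60 for the ID and MSX genes and -0.01 for all genes. Some genes of the ligand, receptor and response-factor lists read near or below the arrays' lower quartile in every group. A change can hardly be read at such levels, so these genes draw the medians of their lists towards 0.

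At day 3, where 3.75% of all genes were called by limma, the ligand BMP7 was lower in depleted cells (-1.18, adjusted p = 0.00136). So was the antagonist NOG (noggin), at 5.54 in depleted against 7.27 in control cells (-1.73, adjusted p = 0.0011). The type I receptor ACVR1 was higher (0.59, adjusted p = 0.0366). Their lists held 12 measured ligands, 11 secreted antagonists and 10 receptors and co-receptors. No gene was called among the SMAD effectors, the intracellular and membrane inhibitors, the other response factors or the E proteins. NOG stayed lower at day 4 (-1.32) and day 5 (-1.64, adjusted p = 0.000118).

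Rescue against depleted cells at day 5 is read beside 39.5% of all genes called, 21.9% higher and 17.6% lower. GREM1 averaged 3.28 in rescue against 7.68 in depleted cells (-4.40, adjusted p = 8.34e-06) and RUNX2 2.51 against 4.82 (-2.31, adjusted p = 3.13e-05). The rescue arrays of RUNX2, at 2.48 and 2.54, lay below the lower quartiles of those arrays (2.97 and 2.96). BAMBI was 1.2 lower in rescue than in depleted cells, at means of 8 and 9.20, and SMAD6 was 0.95 higher, at means of 7.86 and 6.91. Control cells at day 5 read 8.2 and 7.98 for BAMBI and 9.8 and 9.56 for SMAD6, which thus stayed below control in rescue cells. Of the ligands, BMP4 averaged 5.88 in rescue against 8.04 in depleted cells (-2.17, adjusted p = 0.000153), while BMP5 (2.80) and BMP7 (1.13) were higher. Control cells at day 5 read 8.32 and 7.68 for BMP4, 4.37 and 4.12 for BMP5 and 6.29 and 6.43 for BMP7. Rescue arrays thus lay below control arrays for BMP4 and above them for BMP5 and BMP7. Of the 10 receptors 4 were higher and 1 lower, with BMPR1B at 1.71, and 1 of 4 SMAD effectors was higher, SMAD5 at 1.04.

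**Figure D4:**
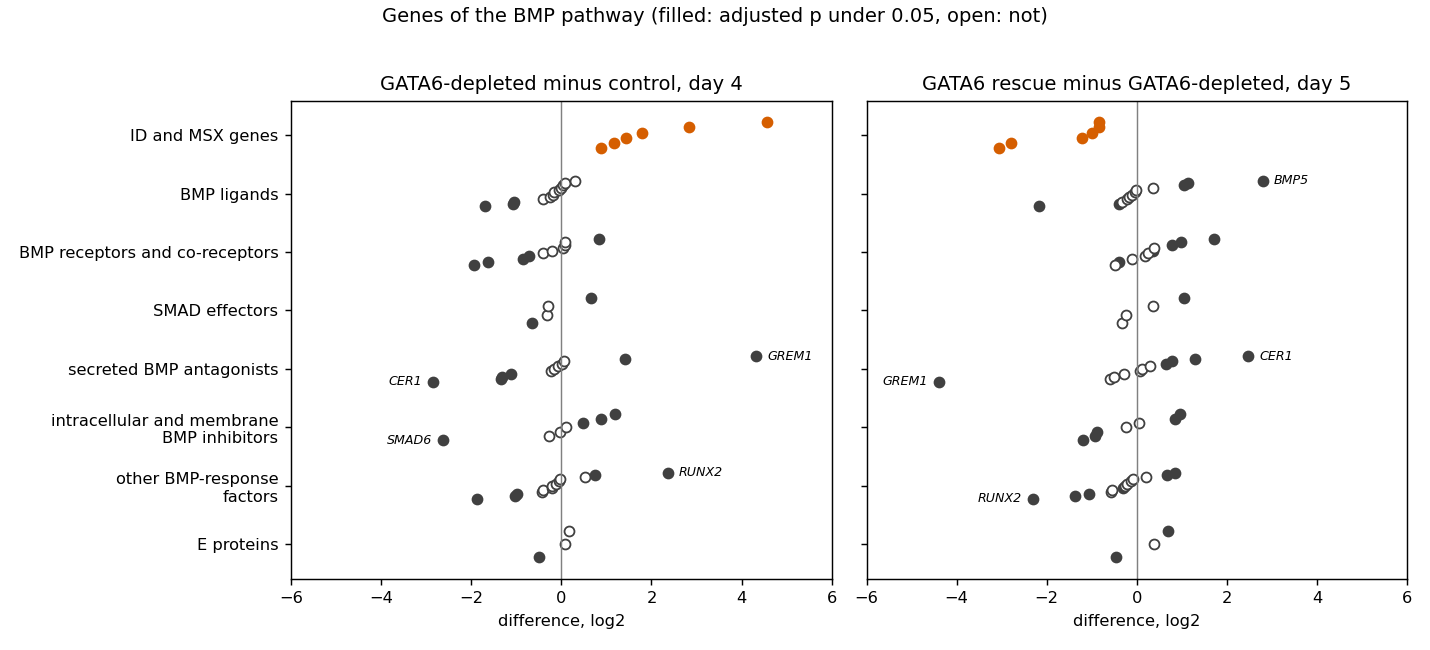
Differences of the ID and MSX genes and of 7 BMP pathway lists (x axis, log2 difference; 1 point per gene; filled, adjusted p under 0.05): GATA6-depleted minus control at day 4 and GATA6 rescue minus GATA6-depleted at day 5. The 6 ID and MSX genes lie on one side of 0 in each panel, and GREM1, at 4.33 and -4.40, changes most among the other genes.

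As a description with no test, levels of the 6 genes were compared over the 8 group means, which differ in day and treatment and rest on the same 16 arrays for every gene. Pearson's r between members ran from 0.36 (ID4 with MSX2) to 0.93 (ID3 with MSX1), with 0.90 for ID2 with ID4. By ranks, Spearman's rho ran from 0.67 (ID1 with ID2) to 0.93 (ID2 with ID4, and ID3 with ID4), with 0.74 for ID4 with MSX2. Among 5585 genes whose group means spanned at least 1 log2, the most similar to ID4 were LRP4 (r = 0.994), a receptor of the LDL receptor family, the cytokine IL6 (0.983) and the endolysosomal channel TPCN1 (0.977). For MSX1 they were MYL10 (0.990), SNAI2 (0.982), a zinc-finger repressor of mesenchymal and neural crest cells, and RSPO3 (0.974), a secreted enhancer of WNT signals. For MSX2 they were ANO4 (0.956), the WNT target SP5 (0.950) and SIPA1L2 (0.946). ID1 ran with TYMS (0.982), the thymidylate synthase of DNA precursor synthesis, FANCB (0.978) and SETD4 (0.977), ID2 with TRMT10A (0.958), TRIO (0.958) and EMILIN2 (0.948), and ID3 with ELFN1 (0.968), RTL5 (0.964) and ZNF506 (0.960).

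The other probe sets of the same genes were read as a check: 2 more for ID1, 1 for ID2, 2 for ID3, 3 for ID4, 0 for MSX1 and 1 for MSX2. The sets used for ID1, ID2 and ID3 are of a type whose name marks probes that may bind other transcripts. All 9 others shared the direction and the call at day 4, and all 9 did so in rescue against depleted cells. For ID4 the day 4 difference was 4.93, 4.33 and 1.5 on the others, beside 4.57. At day 3, 8 of 9 had the same call, and the exception was an ID4 set that was higher in depleted cells (1.04, adjusted p = 0.0383). For MSX2 at day 5 the other set gave -0.22 (adjusted p = 0.486), against 0.16. Rescue against control, control day 4 against day 3 and depleted day 4 against day 3 each had 7 of 9 matching in call. In rescue against control, another ID3 set was higher in rescue cells (1.08, adjusted p = 0.0125), and the other ID4 sets ran from -0.06 to 1.86 (adjusted p = 0.000206 for the last).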

How the data were processed

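RNA from 16 samples of H1 cells was hybridised to 1 PrimeView array each. The authors normalised the scans by RMA and deposited log2 values per probe set (49395, with no value missing). Partek is the tool named per the labels, in a version not given in the sources used here. Of the probe sets, 44994 named 1 gene by the platform's annotation and were kept; 1832 named several and 2569 none. Precision is limited by how many arrays there were.

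A mean per group was fitted to all arrays with limma 3.58.1 in R 4.3.3 (12.6 degrees of freedom in total; median SE 0.152). Calls used a two-sided Benjamini-Hochberg adjusted p under 0.05 over 18132 genes. Replicates of control and depleted cells were separate differentiations per the study, whose text does not say so for the rescue arrays. P-values rest on the spread between replicates pooled over all groups, not on that of the rescue arrays alone. The test was tried on simulated data. Named genes were the 6 members, GATA6, up to 3 called genes with the largest change per pathway list, and the 3 closest genes by pattern; the markers are the exception. The members, lists and rules were chosen with earlier results of these data known. Alternatives were other probe sets, cyclic loess, a filter at the 25th percentile, trended robust moderation, fits of the compared groups alone, a replicate block, the methods' ANOVA thresholds (unadjusted p up to 0.01, with the change at a z-score of 3 or more), rescue as 1 sample, leaving out each array and, added after seeing the data, a replicate block in control days 3 to 5. Promoters came from RefSeq on GRCh38.p14. List counts cover the measured genes; a few other genes of the lists are not reported here.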

Additional observations from a re-analysis of the deposited data

Results flagged for a closer look

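The effect of depletion on 3 members differed between days 3 and 4 by the test of the difference itself: it was larger at day 4 by 2.12 log2 for ID2, by 3.36 for ID4 and by 0.97 for MSX2. In ID2 the effect was 2.83 at day 4 and 0.72 at day 3, in ID4 it was 4.57 at day 4 and 1.21 at day 3, and in MSX2 it was 1.16 at day 4 and 0.19 at day 3. The day 3 value of ID4 rests on control replicates 1.93 log2 apart. With 2 arrays a group, no single array could be tested as an outlier.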

How the results depend on the processing

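None of the 35 member values called changed sign under the 9 alternatives or when any of 16 arrays was left out. The methods' ANOVA thresholds, which called 1.97% to 2.32% of all genes in these comparisons, gave 2 members in place of 6 for depleted against control at day 4, 2 in place of 5 at day 5, 2 in place of 6 for rescue against depleted, 1 in place of 3 for rescue against control, 1 in place of 3 for control day 3 against day 0 and 0 in place of 1 for depleted day 4 against day 3. The mean of all probe sets gave 5 for rescue against control, 1 for control day 5 against day 4 and 2 for depleted day 4 against day 3. Fits of the compared groups alone gave 0 for control day 4 against day 3 and 3 for depleted day 4 against day 3. With rescue arrays as 1 sample these counts were 1 and 0, and trended robust moderation gave 0 for the second. Leaving out an array gave 1 to 3 members at day 3, 5 to 6 at day 4, 5 at day 5, 5 to 6 for rescue against depleted, 1 to 4 for rescue against control, 3 to 4 for control day 3 against day 0, 0 to 5 for control day 4 against day 3, 0 to 2 for depleted day 4 against day 3, 4 to 5 for depleted day 5 against control day 0, and 2 to 3 for the change in effect from day 3 to day 4.

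Signs turned only for values that were not called on all arrays. The mean of all probe sets gave MSX2 -0.03 at day 5 and -0.08 for depleted day 4 against day 3, and cyclic loess gave MSX1 -0.02 for rescue against control. With an array left out, MSX2 ran from -0.01 to 0.39 at day 3 and from -0.02 to 0.39 for depleted day 4 against day 3, ID4 from -0.91 to 1.02 for control day 3 against day 0 (with -0.35 between, and calls at both ends), MSX1 from -0.22 to 0.4 for control day 5 against day 4, ID1 from -0.05 to 0.08 for depleted day 5 against day 4, and MSX1 from -0.15 to 0.47 for the change in effect to day 4. For the change to day 5, ID2 ran from -0.01 to 0.47, ID3 from -0.27 to 0.37 and ID4 from -0.49 to 0.03. The cause of these differences was not tested.

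Replicate numbers did not pair the samples across the groups: deviations of same-numbered arrays correlated at -0.068 to 0.253 over 28 pairs of groups, with 4 over 0.1. Among control days the correlation was 0.253 for days 3 and 4, 0.226 for days 4 and 5 and 0.087 for days 3 and 5, so pairing within the control time course was not settled. A block in control days 3 to 5 alone, chosen after seeing the data, called 4 members in place of 2 for control day 4 against day 3 and 0, as without it, for day 5 against day 4. With replicate number as a block in all groups, 2 members in place of 1 were called for depleted day 4 against day 3. It also called ID3 for rescue against control (0.63, adjusted p = 0.0239), control day 4 against day 3 (-0.95, adjusted p = 0.0157) and depleted day 5 against control day 0 (0.79, adjusted p = 0.00867), and it moved no count of calls by over 1.5 times elsewhere. Another scaling moved the median of all genes by at most 0.04 log2.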
